A study of Mus musculus with 6 samples.

Results

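The histone-modifying factors that set and remove the Polycomb, trithorax and H3K9 methylation marks were compared between WT ASCs and *Bdh2*-knockout ASCs. They are 49 named genes, taken by gene name from a count table of 54715 genes, and all 49 passed the filter on low counts that left 16758 genes for testing. Advanced embryonic stem cells (ASCs) are mouse pluripotent cells held between the naive and the primed state, here from a female 129/sv mouse mated with a GOF/GFP male, and grown in the ABCL medium, named after its Activin A, BMP4, CHIR99021 and LIF. RNA-Seq was done on 3 libraries of WT ASCs (wild type) and 3 libraries of *Bdh2*-knockout ASCs (genotype *Bdh2*-/-), the latter made with CRISPR/Cas9 and guides near the start codon and grown up from a single edited colony. Both genotypes share the strain, the reporter and the medium, the sources used here do not say whether the 3 libraries of a genotype came from separate cultures, and p-values then measure only the spread between these libraries. With 1 clone, an effect of the knockout and a trait of the clone cannot be told apart.

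Polycomb repressive complex 2 (PRC2) methylates lysine 27 of histone H3 through EZH1 or EZH2, and PRC1 ubiquitinates histone H2A through RING1 or RNF2. Both keep developmental genes silent in pluripotent cells. Trithorax (MLL) complexes methylate lysine 4 of H3 at promoters and enhancers and counter Polycomb, while the H3K9 methyltransferases, with TRIM28 and the HP1 readers, silence retrotransposons and heterochromatin. KDM2B recruits a variant PRC1 to CpG islands through a zinc finger that binds unmethylated CpG.

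The outermost changes among the members were those of *Kdm2b*, which rose, and *Ezh1*, which fell, so their promoters are shown with every CG in capitals. Each sequence runs 5′ to 3′ on the strand of its gene, the minus strand in all 3 cases, from 250 bases before to 50 bases after a transcription start, and comes from RefSeq on GRCm38.p6. CG reads the same on both strands. *Kdm2b* has 4 listed starts, of which the outermost and 1 of an overlapping pair inside the gene are given, and counts per gene do not say which start was used.
Kdm2b, outermost start, chr5:122989050-122989349: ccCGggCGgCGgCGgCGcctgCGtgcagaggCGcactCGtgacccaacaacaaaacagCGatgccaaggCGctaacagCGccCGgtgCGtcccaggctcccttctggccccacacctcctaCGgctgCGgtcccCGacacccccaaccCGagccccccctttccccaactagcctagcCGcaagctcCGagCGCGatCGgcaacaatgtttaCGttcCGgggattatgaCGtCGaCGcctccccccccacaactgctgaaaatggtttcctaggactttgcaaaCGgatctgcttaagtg
Kdm2b, inner start, chr5:122900301-122900600: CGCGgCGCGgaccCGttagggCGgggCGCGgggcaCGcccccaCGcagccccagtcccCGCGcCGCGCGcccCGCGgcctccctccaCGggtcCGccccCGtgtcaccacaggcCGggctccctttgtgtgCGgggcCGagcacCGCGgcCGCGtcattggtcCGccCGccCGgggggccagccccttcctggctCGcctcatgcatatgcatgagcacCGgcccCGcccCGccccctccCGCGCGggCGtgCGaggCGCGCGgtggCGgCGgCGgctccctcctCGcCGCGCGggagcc
Ezh1, chr11:101226414-101226713: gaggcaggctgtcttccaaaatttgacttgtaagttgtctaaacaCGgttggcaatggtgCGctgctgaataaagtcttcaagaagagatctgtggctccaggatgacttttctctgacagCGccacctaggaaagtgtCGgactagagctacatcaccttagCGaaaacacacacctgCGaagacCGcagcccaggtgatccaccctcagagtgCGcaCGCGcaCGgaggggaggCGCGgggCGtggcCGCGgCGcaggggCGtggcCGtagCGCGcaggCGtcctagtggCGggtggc
The outermost *Kdm2b* window held 28 CG and the inner window 49, with a GC content of 63.7% and 81.7%. The *Ezh1* window held 23 CG at a GC content of 59.3%. Of 32851 promoter windows of this length in the table, 94.6% held at least 1 CG, with a median of 7, and 43.5% held 10 or more. The table matched 42 of the 49 members with 61 windows, of which 85.2% held 10 or more CG, with a median of 27. The member promoters were thus CpG-rich whichever way the RNA moved. For each gene's richest window the median was 25.5 CG over 14 members that were higher in *Bdh2*-knockout ASCs, 23 over 3 that were lower and 31 over 25 that did not pass the test.

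The libraries held 18927748 to 28333541 counts on genes, so that 3 counts stood for 0.106 to 0.158 counts per 1000000 (CPM). *Bdh2* itself was at 10.5, 9.56 and 8.27 CPM in WT ASCs and at 5.95, 4.99 and 5.38 CPM in *Bdh2*-knockout ASCs (log2 fold change −0.79 ± 0.12 SE, adjusted p = 0.000246). A short deletion in the coding part leaves most of the gene to be counted, so this value gives the RNA left and does not check the loss of the protein. All 11 pluripotency markers were detected in every library, 6 of them (54.5%) higher and 1 (9.09%) lower. Among all genes tested 21.0% were higher and 20.8% lower. The 12 primitive endoderm markers were all higher in *Bdh2*-knockout ASCs. Their summed level was 231.8 to 251.6 CPM in WT ASCs and 598.9 to 672.8 CPM in knockout ASCs. This list was chosen with earlier results of these data known and holds genes that the study reported as higher. The count is therefore no independent evidence. *Srgn*, with 7, 16 and 4 counts in WT ASCs, passed the filter through the knockout libraries. *Hhex*, also a primitive endoderm marker in the study, is not in this list and did not pass the edgeR test (0.05, adjusted p = 0.788). RNA of 15 adult hepatocyte markers, genes of the liver, summed to 506.4, 306.5 and 37.1 CPM in WT ASCs and to 28.7, 138.3 and 16.7 CPM in *Bdh2*-knockout ASCs; 12 of the 15 were lower in edgeR, none of these 12 calls held in DESeq2 (adjusted p = 0.051 to 0.206), and the genotypes overlapped. The 3 libraries with most *Alb* (albumin) RNA were WT libraries 1 and 2 and knockout library 2, and leaving them out keeps only 1 WT library. The 6 fibroblast markers tested summed to 34.2 to 42.1 CPM and 30.8 to 37.1 CPM, with *Dcn*, *Lum* and *Twist2* under the filter; of the 6, *Col1a1*, a collagen gene, was lower in *Bdh2*-knockout ASCs (log2 fold change −0.62, adjusted p = 0.0013) and the other 5 did not pass the test. In bulk RNA a smaller share of cells and less RNA per cell cannot be told apart, and the part of these markers in the results on the members was not tested beyond the values given beside them.

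Of the 49 members, 18 rose in *Bdh2*-knockout ASCs and 5 fell (edgeR's quasi-likelihood test, Benjamini-Hochberg adjusted p under 0.05 over all 16758 genes tested). That is 36.7% higher and 10.2% lower, and 46.9% called in either direction. Among all genes tested 21.0% were higher, 20.8% lower and 41.7% called. Calls are more frequent where counts are high, and among the 12718 genes with a mean count of at least 50, which include 48 of the members, 25.3% were higher and 24.7% lower. In that fit 18 members were higher and 7 lower. The median log2 fold change was 0.09 over the members and −0.01 over all genes tested, and it ran from −0.70 to 0.88 among the members, so none of the 49 reached a 2-fold difference. Tested against a fold change of 1.2, 4 members were higher and 1 lower, where 7.07% and 7.59% of all genes were. The libraries of the genotypes did not overlap for 22 members on the higher side and 7 on the lower, as they did not for 26.3% and 26.1% of all genes. Counts scaled by library totals, without the TMM correction, left 11 members higher and 7 lower, and took the share of calls on the higher side over all genes from 50.3% to 38.0%. With the hepatocyte score as a covariate 13 were higher and 4 lower, and without the 3 libraries with most *Alb* RNA 13 were higher and 6 lower. The 14 members called under all 15 other settings that ask for any change were *Kdm2b*, *Trim28*, *Ehmt2*, *Jarid2*, *Kmt2c*, *Rybp*, *Kmt2d*, *Kdm6a*, *Kmt2b*, *Setdb1* and *Ash2l* on the higher side and *Ezh1*, *Pcgf1* and *Mtf2* on the lower.

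**Figure D1:**
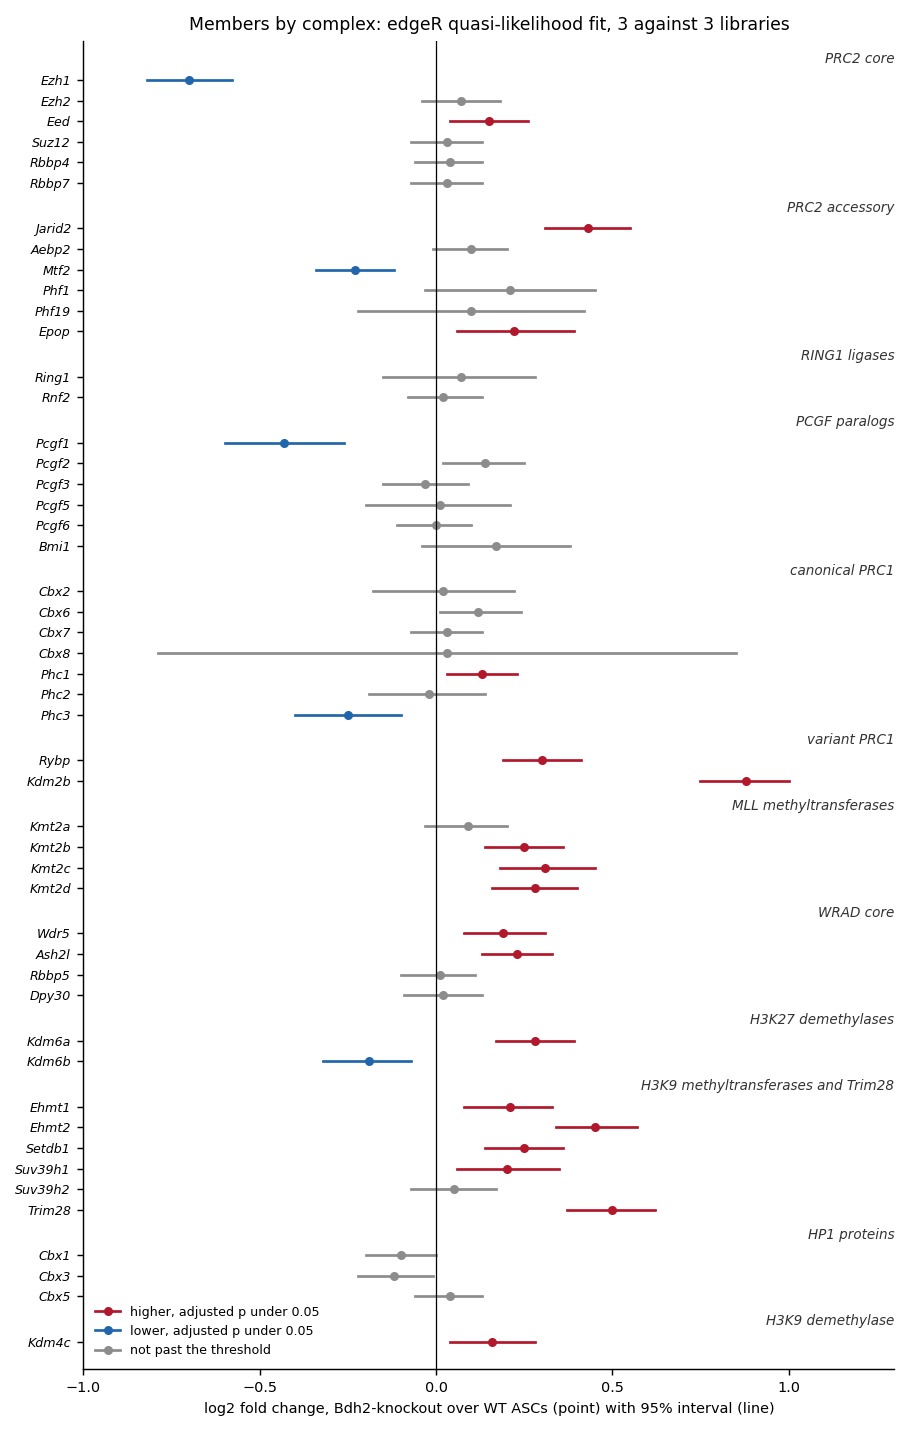
Log2 fold change of each of the 49 members (horizontal axis, *Bdh2*-knockout over WT ASCs) with its 95% interval from the edgeR fit of 3 against 3 libraries, grouped by complex. Of the 18 members in red and 5 in blue, *Kdm2b* at 0.88 and *Ezh1* at −0.70 lie farthest from 0, and the widest interval is that of *Cbx8*, the member with the fewest counts.

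The core of PRC2 showed 1 member higher and 1 lower of 6, or 16.7% each, beside 21.0% and 20.8% of all genes tested. *Ezh1*, the less active of the paired H3K27 methyltransferases and the one favored in non-dividing cells, was at 46.1, 46.2 and 44.6 CPM in WT ASCs. In *Bdh2*-knockout ASCs it was at 26.4, 28.5 and 29.4 CPM. All 3 knockout libraries lay well under all 3 WT libraries, with a log2 fold change of −0.70 ± 0.06 SE (adjusted p = 1.51e-06), or 61.6% of the WT level. Across the 3 WT libraries *Ezh1* was at 44.6 to 46.2 CPM and *Alb* RNA at 330.9 to 22.0 CPM. The log2 fold change was −0.68 both with the hepatocyte score as a covariate and without the 3 libraries with most *Alb* RNA. A part of hepatocyte RNA in this fall was not tested beyond these values. *Ezh1* (ENSMUSG00000006920) lies on chromosome 11 from 101191115 to 101226463 on the minus strand (GRCm38), and none of its exon bases fell under an exon of another gene.

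*Ezh2*, the main H3K27 methyltransferase of dividing cells, was at 163.3, 170.5 and 173.9 CPM in WT ASCs and 181.9, 172.2 and 179.4 CPM in *Bdh2*-knockout ASCs. The libraries overlapped, and the difference of 0.07 had a 95% interval from −0.04 to 0.18 (adjusted p = 0.266). *Eed*, which reads H3K27me3 and stimulates the enzyme, rose from 224.3, 225.1 and 208.1 to 249.7, 242.4 and 237.5 CPM (log2 fold change 0.15 ± 0.05 SE, adjusted p = 0.0278). This small rise was not called without knockout library 1 or 2 or under library totals (0.09). *Suz12*, the scaffold of the complex, and the histone chaperones *Rbbp4* and *Rbbp7* did not pass the test, with log2 differences of 0.03, 0.04 and 0.03 and no interval reaching past 0.13 on the higher or −0.07 on the lower side. On the per-length scale, FPKM, *Ezh2* stood at 25.3 ± 0.811 (SD, n = 3) in WT ASCs and 26.6 ± 0.753 in knockout ASCs, whereas *Ezh1* stood at 6.13 ± 0.123 and 3.78 ± 0.212. The level of *Ezh2* RNA over that of *Ezh1* was therefore 4.13 in WT ASCs and 7.06 in *Bdh2*-knockout ASCs.

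Among the PRC2 accessory genes 2 of 6 (33.3%) rose and 1 (16.7%) fell, beside 21.0% and 20.8% of all genes tested. *Jarid2*, which helps PRC2 to its targets and defines the PRC2.2 form together with AEBP2, was at 270.5, 290.0 and 307.2 CPM in WT ASCs and at 396.4, 376.5 and 396.0 CPM in *Bdh2*-knockout ASCs. The lowest knockout library was above the highest WT library (log2 fold change 0.43 ± 0.05 SE, adjusted p = 4.93e-05). *Mtf2*, a Polycomb-like protein of the PRC2.1 form that binds CpG-rich DNA, moved the other way, from 283.8, 282.1 and 257.3 to 240.3, 228.7 and 232.7 CPM (log2 fold change −0.23 ± 0.05 SE, adjusted p = 0.00335). Without the 3 libraries with most *Alb* RNA the difference of *Mtf2* was −0.12 and its adjusted p 0.0472. *Epop*, a PRC2.1 subunit that links PRC2 to elongin, was at 885.9, 700.6 and 889.9 CPM in WT ASCs and 931.3, 1028.3 and 935.0 CPM in knockout ASCs. WT library 2 lay far under the other WT libraries, and the rise of 0.22 ± 0.08 SE (adjusted p = 0.0339) was 0.12 and not called without that library, and 0.07 and not called without the 3 libraries with most *Alb* RNA. The call was also lost in DESeq2 (0.23, adjusted p = 0.124), with library totals (0.17), with the hepatocyte score (0.22, adjusted p = 0.0673) and without knockout library 2 or 3.

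The remaining accessory genes did not pass the test. *Aebp2* was higher in each knockout library than in any WT library, at 85.4, 84.7 and 86.5 against 93.8, 90.0 and 90.5 CPM, with a log2 difference of 0.10 (adjusted p = 0.129). The Polycomb-like genes *Phf1* and *Phf19* were the low members of this group, at 3.26 ± 0.329 and 0.904 ± 0.119 FPKM (SD, n = 3) in WT ASCs, and their intervals of −0.03 to 0.45 and −0.22 to 0.42 allow a change of either sign. Of the exon bases of *Phf1*, 39.3% lie under genes of the opposite strand, chiefly *Cuta*, and the sources used here do not say whether counting used strand, so its count may hold reads of its neighbor. In the PRC2.1 form the highest member per length was *Epop* at 356.7 ± 46.8 FPKM in WT ASCs, against 48.2 ± 2.60 for *Mtf2*.

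**Figure D2:**
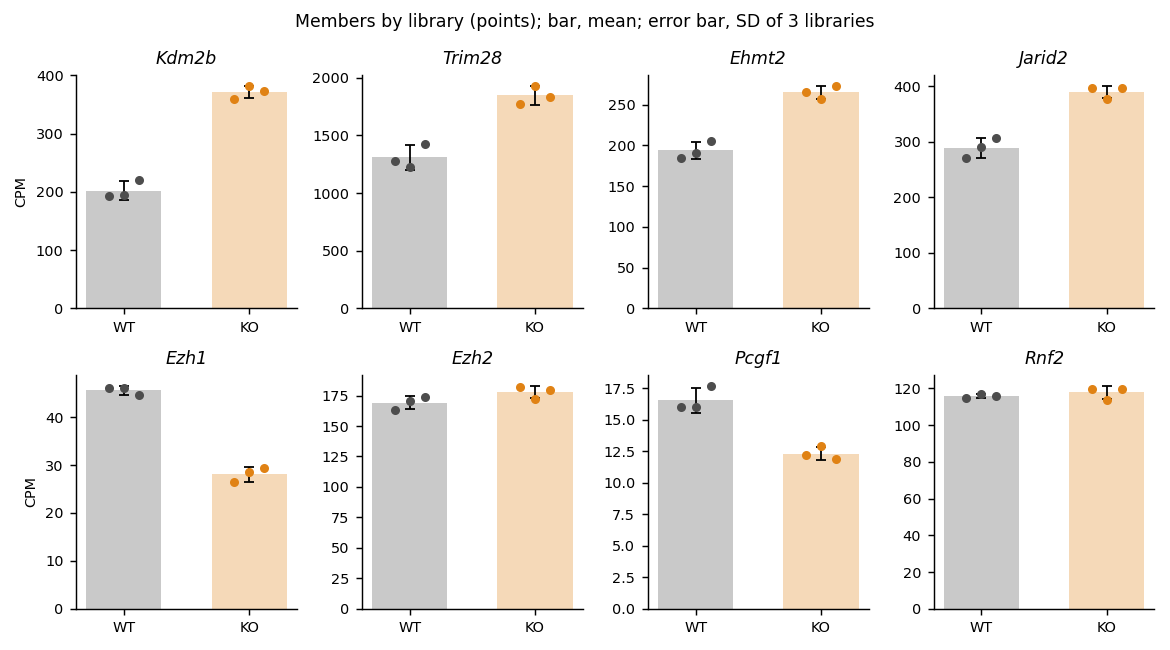
CPM of 8 members in each library (points), with the mean (bar) and SD (error bar) of 3 libraries, in WT and *Bdh2*-knockout (KO) ASCs. *Kdm2b*, *Trim28*, *Ehmt2* and *Jarid2* stood higher and *Ezh1* and *Pcgf1* lower in every knockout library, while *Ezh2* and the PRC1 ligase *Rnf2* overlapped between the genotypes.

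In PRC1 the ligases and most of the subunits that sort PRC1 into its forms did not pass the test. *Rnf2*, the main H2A ubiquitin ligase of pluripotent cells, was at 114.6, 117.1 and 116.0 CPM in WT ASCs and 119.8, 113.8 and 119.8 CPM in *Bdh2*-knockout ASCs, a log2 difference of 0.02 with an interval from −0.08 to 0.13. Its paralog *Ring1* was low, at 3.63 ± 0.476 FPKM in WT ASCs against 28.1 ± 0.297 FPKM for *Rnf2*, and its difference of 0.07 had an interval from −0.15 to 0.28. Of the 6 PCGF genes, whose products decide which PRC1 forms, *Pcgf1* alone was called in this fit. It was at 16, 16 and 17.7 CPM in WT ASCs and 12.2, 12.9 and 11.9 CPM in knockout ASCs (log2 fold change −0.43 ± 0.08 SE, adjusted p = 0.000914). *Pcgf1* encodes the PCGF subunit of the variant PRC1 that holds KDM2B, and the 2 genes moved in opposite directions. As 31.3% of the 50-base stretches of its longest transcript also occur in the pseudogene *Gm8930*, reads of *Pcgf1* may have been split or dropped; *Gm8930* itself had 2 to 5 counts in WT ASCs and 2 to 10 in knockout ASCs.

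*Pcgf6*, part of the variant PRC1 that silences germline genes, was the highest of its family per length, at 41.8 ± 0.672 FPKM in WT ASCs and 41.7 ± 0.492 in *Bdh2*-knockout ASCs, and its interval from −0.11 to 0.10 was the narrowest of the 6. *Pcgf2*, the PCGF of canonical PRC1 in pluripotent cells, was at 97.5, 94.4 and 94.7 against 104.6, 110.8 and 99.4 CPM, a difference of 0.14 that missed the threshold (adjusted p = 0.057) and passed it in DESeq2 (0.0486). *Bmi1*, its low paralog, differed by 0.17 with an interval from −0.04 to 0.38, and 18.5% of its 50-base stretches also occur in other genes. *Pcgf3* and *Pcgf5*, which are tied to broad H2A ubiquitination, differed by −0.03 and 0.01, and their libraries overlapped.

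Canonical PRC1, whose CBX subunits read H3K27me3 and whose PHC subunits compact chromatin, had 1 of 7 members higher and 1 lower. That is 14.3% each, beside 21.0% and 20.8% of all genes tested. *Phc1* rose from 495.2, 525.9 and 536.7 to 562.4, 571.0 and 570.7 CPM (log2 fold change 0.13 ± 0.05 SE, adjusted p = 0.0387), a difference that was not called when any library other than WT library 3 was left out. Nor was it called with library totals (adjusted p = 0.217), with the hepatocyte score (adjusted p = 0.254) or without the 3 libraries with most *Alb* RNA, where it was 0.08. *Phc3* fell from 34.3, 34.6 and 30.4 to 29.3, 25.7 and 28.3 CPM (log2 fold change −0.25 ± 0.07 SE, adjusted p = 0.0113), but was not called without knockout library 2, with the hepatocyte score as a covariate (−0.23, adjusted p = 0.0661), or without the 3 libraries with most *Alb* RNA, where the difference was −0.08 (adjusted p = 0.492). *Cbx7*, the main CBX of PRC1 in pluripotent cells, was the highest CBX per length of the group at 36.1 ± 0.725 FPKM in WT ASCs and 36.9 ± 0.672 in knockout ASCs, with a log2 interval from −0.07 to 0.13. *Cbx6* differed by 0.12 (adjusted p = 0.0806), *Cbx2* by 0.02 and *Phc2* by −0.02, and the last pair overlapped between genotypes. Without the 3 libraries with most *Alb* RNA both were called lower, *Cbx2* at −0.27 (adjusted p = 0.00793) and *Phc2* at −0.20 (adjusted p = 0.0459). *Cbx8* had only 11 to 25 counts in WT ASCs and 16 to 29 in knockout ASCs, and its difference of 0.03 had an interval from −0.79 to 0.85, so a smaller difference in either direction was not detectable at this depth.

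*Kdm2b* and *Rybp*, which encode variant PRC1 subunits other than PCGF proteins, both rose, as 21.0% of all genes tested did. *Kdm2b* was at 192.1, 194.4 and 220.3 CPM in WT ASCs, and at 359.7, 381.3 and 372.6 CPM in *Bdh2*-knockout ASCs. Each knockout library stood far above every WT library, with a log2 fold change of 0.88 ± 0.06 SE (adjusted p = 2.85e-07) and a level of 183.5% of WT. The difference stayed between 0.84 and 0.94 when 1 library was left out, was 0.82 with library totals and with the hepatocyte score as a covariate, and 0.73 without the 3 libraries with most *Alb* RNA. *Rybp*, which competes with CBX proteins for RNF2 and stimulates its activity, rose from 83.3, 84.3 and 86.8 to 102.2, 109.4 and 101.9 CPM (log2 fold change 0.30 ± 0.05 SE, adjusted p = 0.000522). The RNA of *Kdm2b* and *Rybp* together was 275.4 to 307.1 CPM in WT ASCs and 461.8 to 490.7 CPM in *Bdh2*-knockout ASCs.

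*Kdm2b* (ENSMUSG00000029475) lies on chromosome 5 from 122870665 to 122989823 on the minus strand (GRCm38), and the outer promoter shown above sits at its upstream end. Genes of the opposite strand, *Rnf34* and *A930024E05Rik*, cover 7.60% of its exon bases. *Rnf34* moved the other way, at 52.1, 49.2 and 51.6 against 45.7, 43.2 and 47.7 CPM (log2 fold change −0.16, adjusted p = 0.0263). *A930024E05Rik*, which starts next to the outer promoter in the opposite direction, was at 5.09, 6.53 and 5.46 CPM in WT ASCs and 9.14, 5.79 and 8.13 CPM in knockout ASCs (0.43, adjusted p = 0.0479), and the genotypes overlapped. Of the 50-base stretches of the longest *Kdm2b* transcript, 12.5% also occur in other genes, among them the pseudogene *Gm12397*. The counts of *Gm12397* went with *Kdm2b*, from 4.89, 5.84 and 5.42 to 8.48, 10.3 and 8.09 CPM. The levels of *A930024E05Rik* and *Gm12397* were a small part of that of *Kdm2b*, and the level of *Rnf34* lay between. Whether reads of these genes entered the count of *Kdm2b* was not tested.

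**Figure D3:**
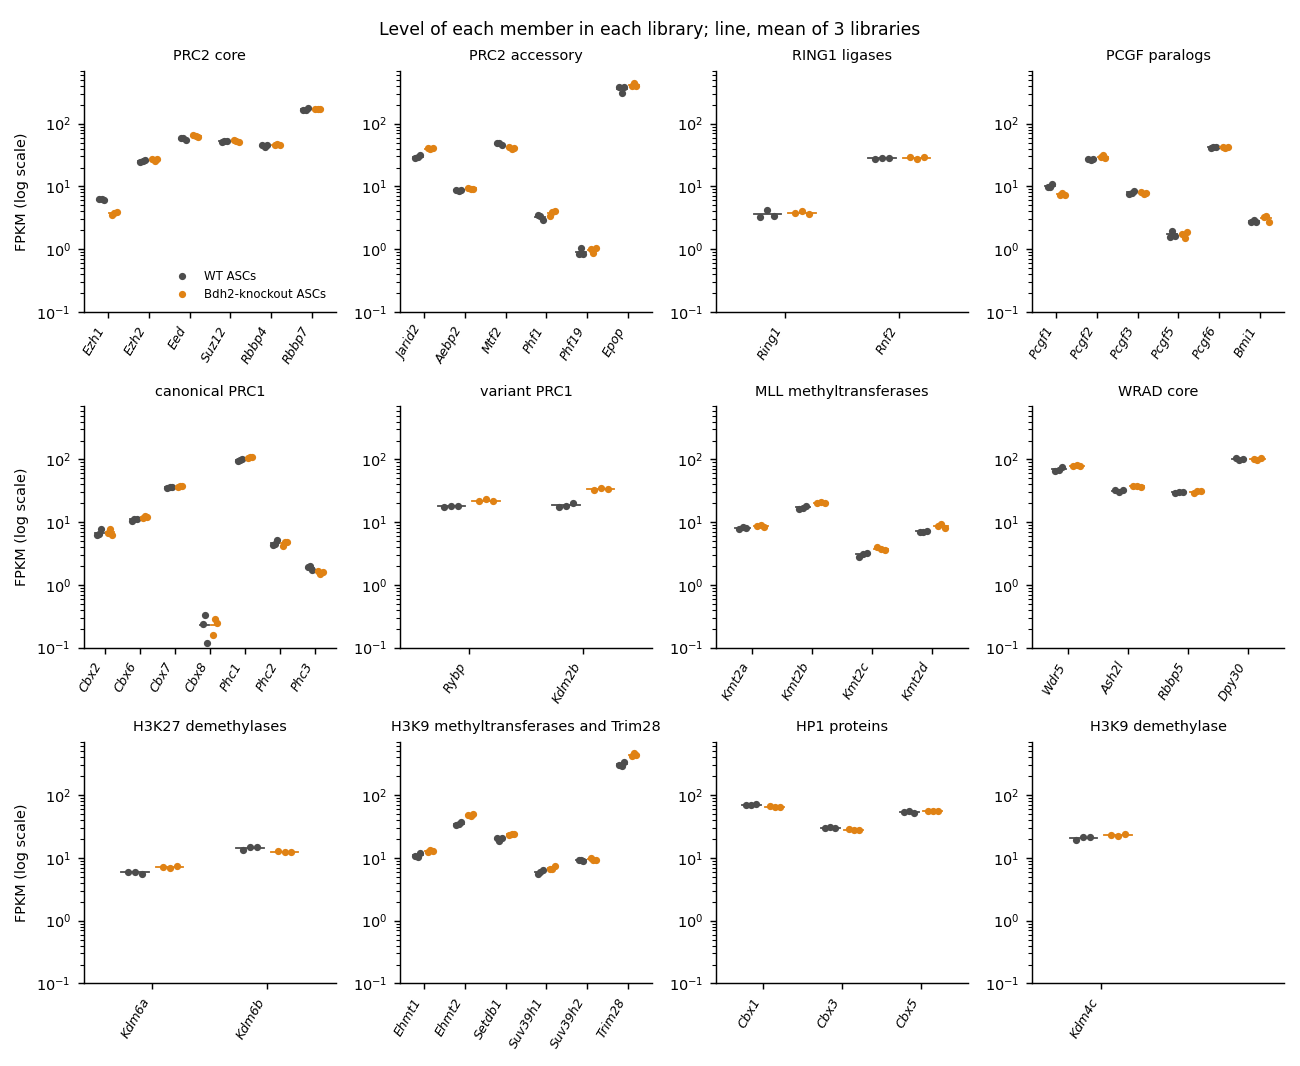
FPKM of every member in each library, by complex, on a log axis, with points for libraries and a line for the mean of 3. In WT ASCs the means ran from *Cbx8* at 0.231 FPKM to *Epop* at 356.7 FPKM, and *Rybp* and *Kdm2b*, close together in WT ASCs at 17.9 and 18.6 FPKM, stood at 22.0 and 34.2 FPKM in *Bdh2*-knockout ASCs.

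In the trithorax group 3 of the 4 MLL methyltransferases rose (75.0%), beside 21.0% of all genes tested. *Kmt2b* (MLL2), the H3K4 methyltransferase of bivalent promoters, was at 157.6, 164.2 and 171.9 CPM in WT ASCs and 190.9, 203.9 and 191.5 CPM in *Bdh2*-knockout ASCs (log2 fold change 0.25 ± 0.05 SE, adjusted p = 0.00209), and differed by 0.15 without the 3 libraries with most *Alb* RNA. The enhancer H3K4 monomethyltransferases moved by like amounts, *Kmt2c* (MLL3) from 57.4, 63.5 and 65.0 to 82.0, 75.4 and 73.7 CPM (0.31 ± 0.06 SE, adjusted p = 0.00134). *Kmt2d* (MLL4) went from 140.3, 140.9 and 145.0 to 170.4, 183.7 and 163.5 CPM (0.28 ± 0.05 SE, adjusted p = 0.00111). In none of the 3 did the genotypes overlap. *Kmt2a* (MLL1) was at 131.0, 140.6 and 135.4 against 146.7, 147.7 and 137.4 CPM, where the genotypes overlapped and the difference of 0.09 had an interval from −0.03 to 0.20. Whether *Kmt2a* differed from the other MLL genes was not tested beyond its ratio to *Kmt2b*.

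The WRAD core is the set of 4 subunits that every MLL complex needs for its activity, and 2 of its 4 genes rose. *Ash2l* went from 292.8, 274.8 and 288.7 to 332.8, 337.7 and 330.6 CPM (log2 fold change 0.23 ± 0.05 SE, adjusted p = 0.00183) and *Wdr5*, which anchors the core to the enzyme, from 237.9, 242.3 and 269.4 to 282.2, 295.3 and 280.6 CPM (0.19 ± 0.06 SE, adjusted p = 0.0127). The rise of *Wdr5* was 0.06 and not called without the 3 libraries with most *Alb* RNA, and it was not called with library totals (0.14), with the hepatocyte score (0.15) or without knockout library 2. *Rbbp5* and *Dpy30* overlapped between the genotypes, with differences of 0.01 and 0.02 and intervals from −0.10 to 0.11 and −0.09 to 0.13. Per length *Dpy30* was the highest of the core, at 100.7 ± 3.69 FPKM in WT ASCs, and *Rbbp5* the lowest, at 30.2 ± 0.577.

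The H3K27 demethylases, which remove the mark that PRC2 sets, were both called, in opposite directions, where 41.7% of all genes tested were called. *Kdm6a* (UTX), an X-linked subunit of the KMT2C and KMT2D complexes, was at 49.5, 50.6 and 47.3 CPM in WT ASCs and 59.8, 57.8 and 61.4 CPM in *Bdh2*-knockout ASCs (log2 fold change 0.28 ± 0.05 SE, adjusted p = 0.000814). *Kdm6b* (JMJD3) was at 93.4, 103.7 and 103.7 against 90.8, 86.9 and 85.3 CPM (−0.19 ± 0.06 SE, adjusted p = 0.0142), and was not called without WT library 2 or knockout library 3. The summed RNA of the pair was 142.9 to 154.3 CPM in WT ASCs and 144.7 to 150.6 CPM in *Bdh2*-knockout ASCs, ranges that overlap. The 588 genes tested on chromosome X, which holds *Kdm6a*, *Suv39h1* and *Rbbp7*, had a median log2 fold change of −0.01.

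On the H3K9 side 5 of 6 methyltransferase and corepressor genes rose. *Trim28* (KAP1), the corepressor that KRAB zinc-finger proteins bring to retrotransposons and imprinted loci, was at 1275.5, 1224.7 and 1428.5 CPM in WT ASCs and 1772.4, 1930.9 and 1836.2 CPM in *Bdh2*-knockout ASCs. Its log2 fold change was 0.50 ± 0.06 SE (adjusted p = 2.52e-05), and 0.33 without the 3 libraries with most *Alb* RNA, over 1.5 times smaller but still called. *Setdb1*, the enzyme for H3K9me3 that TRIM28 recruits, rose from 140.0, 129.9 and 140.7 to 156.5, 167.2 and 164.6 CPM (0.25 ± 0.05 SE, adjusted p = 0.00204). In both genes every knockout library lay above every WT library.

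*Ehmt2* (G9a), which sets H3K9me2 as a dimer with GLP, went from 185.0, 190.2 and 205.9 to 265.6, 257.1 and 273.0 CPM (log2 fold change 0.45 ± 0.05 SE, adjusted p = 2.85e-05). Its partner *Ehmt1* (GLP) rose less, from 87.2, 85.5 and 96.6 to 100, 107 and 104.0 CPM (0.21 ± 0.06 SE, adjusted p = 0.0120), and was at 0.08 and not called without the 3 libraries with most *Alb* RNA. This call was also lost with library totals (0.15), with the hepatocyte score (0.17) and without WT library 2. *Suv39h1*, which sets H3K9me3 in pericentric heterochromatin, was at 29.5, 31.6 and 33.4 against 35, 35.2 and 39 CPM (0.20 ± 0.07 SE, adjusted p = 0.0233), and the call was lost when WT library 1 or 2 or knockout library 3 was left out, as it was with the hepatocyte score as a covariate (0.12), with library totals (0.15) and without the 3 libraries with most *Alb* RNA (0.14). Of its exon bases 14.6% lie under the antisense gene *Gm14820*, which had 24 to 43 counts in a library. *Suv39h2*, its paralog, overlapped between the genotypes with a difference of 0.05 and an interval from −0.07 to 0.17.

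The HP1 genes, whose products bind H3K9me3, did not pass the test, although their libraries did not overlap. *Cbx1* was at 302.3, 295.1 and 306.7 against 289.1, 277.8 and 277.7 CPM (log2 difference −0.10, adjusted p = 0.102) and *Cbx3* at 180.8, 189.7 and 177.4 against 172.3, 168.1 and 164.3 CPM (−0.12, adjusted p = 0.0691). With library totals in place of TMM both were called lower, at −0.16 and −0.18. *Cbx5* was at 494.9, 495.3 and 473.8 against 504.3, 499.9 and 495.8 CPM, a difference of 0.04 with an interval from −0.06 to 0.13. *Kdm4c*, a demethylase of H3K9me3, rose from 114.5, 124.3 and 124.4 to 134.0, 130.6 and 141.8 CPM (0.16 ± 0.05 SE, adjusted p = 0.0294), and was not called without WT library 1 or knockout library 3 or, at 0.10, with library totals or with the hepatocyte score.

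**Figure D4:**
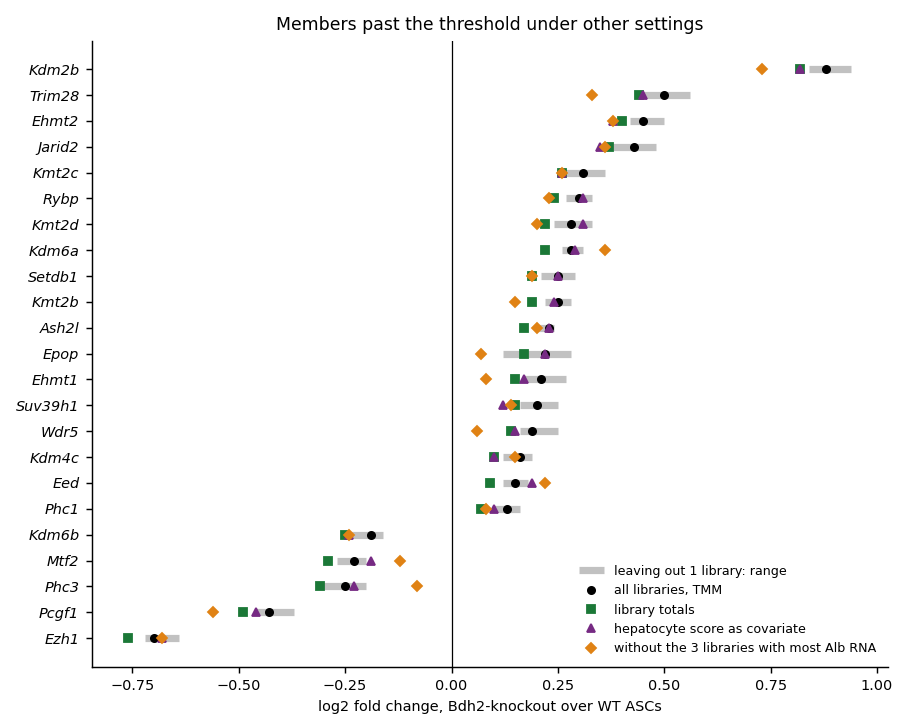
Log2 fold change of the 23 called members (vertical axis) with all libraries, with library totals, with the hepatocyte score as a covariate and without the 3 libraries with most *Alb* RNA, and the range over leaving out 1 library (bar). All points keep their side of 0, and *Epop*, *Ehmt1*, *Wdr5*, *Phc1* and *Phc3* come within 0.08 of it without the 3 libraries.

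Since many of these factors have a paralog that can take the same place in a complex, the ratio of their FPKM was formed in each library for 11 pairs. The ratio of *Ezh1* to *Ezh2* (log2) was −1.98, −2.04 and −2.12 in WT ASCs and −2.94, −2.75 and −2.76 in *Bdh2*-knockout ASCs, a difference of −0.77. The ratio of *Kdm6b* to *Kdm6a* was 1.19, 1.31 and 1.40 against 0.87, 0.86 and 0.74, a difference of −0.47. That of *Ehmt1* to *Ehmt2* differed by −0.25, from −1.65, −1.72 and −1.66 to −1.97, −1.83 and −1.96. These pairs and the smaller shifts of *Kmt2a* to *Kmt2b* (−0.16), *Phc2* to *Phc1* (−0.15) and *Cbx1* to *Cbx5* (−0.13) were the 6 of 11 whose genotypes did not overlap. Among single genes 26.3% did not overlap on the higher side and 26.1% on the lower. Whether ratios of other gene pairs separate the genotypes as often was not tested. In the 6 pairs the count is thus no trait of paralogs. In each of the 6 the two-sided exact permutation p was 0.1, the smallest that 3 against 3 libraries can give. It was 0.183 after adjustment over the 11 pairs, so no pair could pass the threshold. The pairs *Ring1* to *Rnf2*, *Pcgf2* to *Bmi1*, *Cbx2* to *Cbx7*, *Kmt2c* to *Kmt2d* and *Suv39h1* to *Suv39h2* overlapped, with differences from −0.03 to 0.16.

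**Figure D5:**
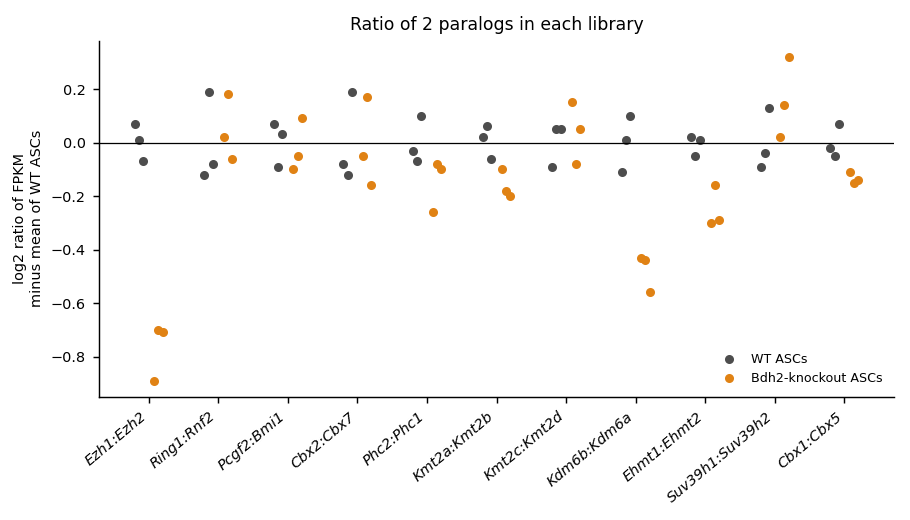
Log2 ratio of FPKM of each pair of paralogs in each library, less the mean of the 3 WT libraries (vertical axis). The knockout points of *Ezh1* to *Ezh2* and *Kdm6b* to *Kdm6a* lie farthest from the WT points, with mean differences of −0.77 and −0.47.

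Other genes of the same pathways were read from lists that hold no member. Of 82 names listed, 76 were tested, and *Tasor* and *Fam208a* among them are names of the same gene. In the knockout libraries 31 of them were higher and 7 lower, and their median log2 fold change was 0.11, beside −0.01 over all genes. That is 40.8% higher and 9.21% lower, beside 21.0% and 20.8% of all genes tested. In the other Polycomb list 9 of 30 (30.0%) were higher and 2 (6.67%) lower. *Bcorl1*, a relative of the PCGF1 partner BCOR, was at 14.3, 14.1 and 15.6 against 7.11, 9.06 and 7.43 CPM (log2 fold change −0.90, adjusted p = 2.52e-05). *Bcor* itself moved the other way, from 53.0, 61.3 and 59.9 to 78.7, 82.2 and 79.5 CPM (0.46, adjusted p = 6.08e-05). *Sfmbt2*, an MBT-domain Polycomb protein gene, rose from 20.9, 26.5 and 22.0 to 34.6, 35 and 38 CPM (0.63, adjusted p = 5.71e-05) and *Asxl1*, the partner of the H2A deubiquitinase BAP1, from 131.8, 130.1 and 142.0 to 178.4, 199.4 and 183.8 CPM (0.47, adjusted p = 3.49e-05).

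In the other trithorax list 10 of 18 (55.6%) were higher and 2 (11.1%) lower, against the same all-gene shares. *Setd1b*, which sets H3K4me3 at many promoters, rose from 40.2, 42.9 and 46.4 to 86.9, 95.6 and 80.7 CPM (log2 fold change 1.02, adjusted p = 4.00e-07), more than any member. *Hcfc1*, a subunit shared by SET1 and MLL complexes, rose by 0.51 (adjusted p = 2.17e-05), and its paralog *Hcfc2* fell by 0.52 on the log2 scale (adjusted p = 0.00997), a call lost without the 3 libraries with most *Alb* RNA (−0.40, adjusted p = 0.0672). Of 28 other H3K9 genes, 12 (42.9%) were higher and 3 (10.7%) lower, led by the H3K9 demethylase *Kdm3a* (0.57, adjusted p = 2.14e-06), the H3K9 and H3K27 demethylase *Kdm7a* (−0.54, adjusted p = 0.000169) and the SETDB1 partner *Atf7ip2* (0.53, adjusted p = 0.000836).

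For the genes on which PRC2 is known to act, 40 developmental regulators that carry H3K27me3 in embryonic stem cells were listed. Of the 33 tested, 15 were higher and 3 lower in the knockout libraries, and the median log2 fold change was 0.28. That is 45.5% higher and 9.09% lower, beside 21.0% and 20.8% of all genes tested, whose median was −0.01. Some of the genes called higher, *Foxa2*, *Lhx1* and *Pax6* among them, passed the filter on low counts through the knockout libraries. *Foxa2* had 2, 10 and 8 counts in WT ASCs and 60, 62 and 35 in knockout ASCs. Being tested thus depended on the rise itself for such genes. Without the filter 17 of 40 were higher and 3 lower. *Sox17* was at 1.44, 1.04 and 1.35 against 9.07, 10 and 11.8 CPM (log2 fold change 3.00, adjusted p = 4.77e-08), *Sox7* differed by 2.75 (adjusted p = 1.67e-06) and *Foxa2* by 2.66 (adjusted p = 0.00014). *Sox17* and *Sox7* are also among the primitive endoderm markers, 4 genes stand in both lists, and the study itself named some of these genes from the same libraries, so the count is no independent evidence of a direction. No histone mark was measured here, and whether any of these genes moved with the RNA of a Polycomb gene was not tested.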

How the data were processed

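RNA-Seq of 3 libraries of WT ASCs and 3 of *Bdh2*-knockout ASCs gave 1 table. The authors trimmed reads, mapped them to GRCm38 with HISAT2 (2.0.5 in the submitters' processing notes), counted them on genes with FeatureCounts and deposited raw counts with a listed length for each gene. The annotation release, the use of strand and the handling of reads with several matches are not given in the sources used here. Starts and ends of 47 of the 49 members equal those of GENCODE M21, which gave overlaps and 50-base stretches shared with other genes.

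Counts were analysed with edgeR 4.0.16 in R 4.3.3 (TMM, filterByExpr, glmQLFit and glmQLFTest, genotype only, Benjamini-Hochberg over 16758 genes, threshold 0.05). CPM are counts per 1000000 of the TMM-scaled library size, and FPKM are CPM per 1000 bases of listed length. SE and 95% intervals come from the same fit, SD is over 3 libraries, and intervals cover the spread between these libraries. The script was tested on simulated data. Between replicates counts differed by more than sampling noise (chi-square 4.07 to 9.57 per gene), so no library was a copy.

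Groups and replicate numbers are those of the labels. Every member is named. In each other pathway list and the PRC2-marked list the 3 called genes with the largest change are named. Members and lists were chosen with earlier results of these data known. Alternatives were DESeq2 1.42.0, limma-voom (limma 3.58.1), median-of-ratios factors, library totals, no filter, a mean count of at least 50, a replicate block, the hepatocyte marker score as a covariate, a test against a fold change of 1.2, leaving out each library and, chosen after seeing the data, leaving out the 3 libraries with most *Alb* RNA. *Prdm3*, *Tasor* (listed as *Fam208a*) and *Ezhip* had no row under those names.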

Additional observations from a re-analysis of the deposited data

How the results depend on the processing

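With library totals in place of TMM, 11 members were higher and 7 lower, and 14 PRC2-marked genes were higher and 5 lower; the median of all genes shifted by −0.058. Tested against a fold change of 1.2, 4 members were higher and 1 lower, 10 companion genes of the 3 other pathway lists were higher and 3 lower, and 13 PRC2-marked genes were higher and 1 lower. That test called 2457 genes in all, where the test for any change called 6996. *Cbx2*, not called with all libraries (0.02), was lower without the 3 libraries with most *Alb* RNA (−0.27, adjusted p = 0.00793), as was *Phc2* (−0.02 with all libraries, −0.20 without, adjusted p = 0.0459); the cause was not tested, and that fit holds 1 WT library, assumed to vary like the others. Leaving out 1 library gave 14 to 19 members higher and 4 to 6 lower. DESeq2 gave 18 higher and 5 lower, with *Epop* lost and *Pcgf2* gained, and limma-voom gave the same counts.

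Same-numbered libraries deviated from their group means with correlations of −0.154, 0.0995 and 0.245. WT libraries 2 and 3 went best with their own number, and WT library 1 with knockout library 2 (0.312). With 3 libraries per genotype these correlations cannot decide whether the numbers pair the samples. With a replicate block 17 members were higher and 5 lower, *Phc1* being the call lost (adjusted p = 0.081), and 6452 genes were called in all. Depth limited *Cbx8* most, with 11 to 29 counts in a library.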
